A study of Homo sapiens and Mus musculus with 69 samples.

Results

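This account follows 10 genes of the machinery that senses DNA and RNA inside the cell, in small cell lung cancer (SCLC) cell lines in which Notch signaling was switched on. The genes were chosen by name, with earlier results of these data known. They are the sensors MB21D1 (the gene of cGAS), IFI16, IFIH1 (MDA5) and TLR3, the adaptors TMEM173 (the gene of STING) and MAVS, the kinases TBK1 and IKBKE, the transcription factor IRF3 and the nuclease TREX1. All 10 were listed among 20516 genes in the human table, and mouse counterparts of 8 were listed among 18501 genes in the KP1 table. Bulk RNA-Seq covered 69 libraries in 23 groups of 3, of which 60 libraries came from 4 human SCLC lines and 9 from KP1, a mouse SCLC line without functional Rb1 and Trp53.

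The groups were as follows. H82 cells were parental, or carried a doxycycline-inducible lentiviral vector for the NOTCH1 intracellular domain (N1ICD) and were grown with or without doxycycline (1 ug/mL), with intact REST and STING, with REST knocked out (REST KO) or with STING knocked out (STING KO), which made 7 groups. H524 cells were parental, carried N1ICD with or without doxycycline, or carried inducible REST, a repressor of neuronal genes, with or without doxycycline. H69 cells were parental or carried N1ICD with or without doxycycline. COR-L88 cells received the vehicle DMSO, TAS1440 (100 nM), an inhibitor of the histone demethylase LSD1, or TAS1440 with the gamma-secretase inhibitor BMS-708163 (GSI, 2 uM), which blocks the cut that frees the Notch intracellular domain, and COR-L88 STING KO cells received DMSO or TAS1440. KP1 cells received DMSO, TAS1440, or TAS1440 with the GSI DBZ (10 uM). Per the study's methods, inductions and TAS1440 treatments lasted at least 28 days, and the cells taken after induction were the adherent ones, so a group with doxycycline is also a group chosen by attachment. The knockouts used 1 guide each, and a small insertion or deletion need not lower the mRNA, so the TMEM173 and REST transcript levels do not check them. The study shows its REST and STING1 knockouts as single-cell clones on immunoblots. The labels do not say which clones were sequenced or whether the intact cells were cloned. An effect of a knockout and a difference between clones therefore cannot be told apart. The labels give no times or doses and do not say whether the 3 libraries of a group were separate cultures, so the P values measure the spread between these libraries only.

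Double-stranded DNA in the cytosol is bound by cGAS, which makes the second messenger cGAMP. cGAMP binds STING on the endoplasmic reticulum, and STING then brings TBK1 and its relative IKK-epsilon (encoded by IKBKE) to IRF3, which turns on type I interferon. Double-stranded RNA is bound by MDA5 in the cytosol, which signals through MAVS on mitochondria to the same kinases, and by TLR3 in endosomes, while TREX1 degrades cytosolic DNA before cGAS can bind it. STING, cGAS, IFI16, MDA5, TLR3 and TREX1 are themselves among genes that interferon can raise, and SCLC lines are known for low STING and cGAS.

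Promoters of 7 of the 10 genes were matched in RefSeq (GRCh38.p14, 250 bases before and 50 after the gene start); STING1, CGAS and IRF3 were not matched. The 3 sensors called higher with NOTCH1 in H524 and H69 are shown, each read 5′ to 3′ on the strand of its gene, with the matches to the motifs searched in capitals.
IFIH1, chr2:162318635-162318934, minus strand: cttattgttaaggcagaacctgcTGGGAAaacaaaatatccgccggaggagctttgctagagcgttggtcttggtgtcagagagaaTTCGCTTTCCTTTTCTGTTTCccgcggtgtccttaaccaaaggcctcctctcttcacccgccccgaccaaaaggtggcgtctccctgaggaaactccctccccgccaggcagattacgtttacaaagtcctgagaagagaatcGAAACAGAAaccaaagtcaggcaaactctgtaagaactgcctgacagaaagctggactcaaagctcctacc
TLR3, chr4:186068906-186069205, plus strand: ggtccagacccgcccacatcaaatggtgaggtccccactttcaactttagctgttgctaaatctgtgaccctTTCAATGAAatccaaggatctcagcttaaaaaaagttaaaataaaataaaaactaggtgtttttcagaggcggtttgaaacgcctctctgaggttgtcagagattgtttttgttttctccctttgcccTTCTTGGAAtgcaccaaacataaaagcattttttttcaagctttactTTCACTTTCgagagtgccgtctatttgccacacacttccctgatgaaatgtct
IFI16, chr1:159008741-159009040, plus strand: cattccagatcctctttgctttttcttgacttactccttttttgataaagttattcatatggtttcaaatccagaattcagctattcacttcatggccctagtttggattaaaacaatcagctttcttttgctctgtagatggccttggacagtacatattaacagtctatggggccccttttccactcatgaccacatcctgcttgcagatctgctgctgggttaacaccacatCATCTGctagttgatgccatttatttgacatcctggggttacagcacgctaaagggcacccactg
The motifs searched on both strands were the core of the interferon-stimulated response element (ISRE, GAAANNGAA), the GAS element (TTCNNNGAA), the core bound by the Notch cofactor CSL (TGGGAA), NF-kB (GGGANNTCC), AP-1 (TGANTCA), CRE (TGACGTCA) and the E-boxes CAGATG and CAGCTG. In IFIH1 the capitals are a CSL core followed by 3 overlapping ISRE cores on the opposite strand and 1 ISRE core on the gene's strand. In TLR3 they are 2 GAS elements and, last, an ISRE core on the opposite strand, and in IFI16 a single E-box on the opposite strand. Of 27305 promoters of the same length, 8.29% held the ISRE core, 7.88% the GAS element, 24.3% the CSL core and 14.8% the E-box CAGATG. Among the 7 members matched, 2 held the ISRE core, 1 the GAS element, 3 the CSL core and 1 the E-box CAGATG. The other CSL cores lay in IKBKE and TREX1. Whether any motif has a part in the results below was not tested. GC content was 50.7% in the IFIH1 promoter, 40.3% in TLR3 and 42.3% in IFI16, against a median of 58.3% over all promoters.

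Values are given as log2(RPKM + 1), the scale of the deposited tables, in which 0 means that a gene was listed at 0. A difference on this scale understates the fold change of a gene with a low level. The deposited low values of these genes moved in whole steps, so the number of reads behind a low value could be read back. All values up to 30 reads lay within 0.15 of a whole number of reads. Higher read numbers were scaled from the worth of 1 read, rounded, and are approximate. Library sizes relative to their median ran from 0.695 to 1.52 in the human libraries, and total depth is unknown. One read was worth 0.0115 RPKM for TMEM173 but 1.56 RPKM for IFIH1 and 0.159 RPKM for TLR3, which is 135-fold and 13.8-fold more, although the annotated transcripts of IFIH1 and TLR3 are at most 3712 and 6015 bases long against 3200 for TMEM173. IFIH1 and TLR3 levels are therefore compared between groups only, never with other genes. Reads counted by PCR are not independent molecules, so the intervals and floors below cover counting error only.

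The targeted genes moved as labelled: NOTCH1 was 0.88 to 1.45 without and 4.26 to 5.56 with doxycycline in H82, 0.79 to 1.52 and 7.58 to 8.31 in H524, and 0.38 to 0.39 and 7.93 to 8.07 in H69. The summed level of 5 SCLC markers was lower in every NOTCH1 group with doxycycline, at 30.5 to 30.9 without and 5.75 to 7.85 with it in H82, 34.4 to 34.6 and 23.7 to 29.1 in H524, and 29.3 to 31.6 and 1.99 to 2.42 in H69, and at 30.9 to 31.5 with DMSO and 11.6 to 13.9 with TAS1440 in COR-L88. The sum does not describe each marker: in H524, 1 of the 5 was called higher with NOTCH1, reaching log2 1 only in the induced group. The summed level of 5 listed leukocyte and endothelial markers (of 6) stayed at or below 2.31 in every human library, and the highest sum was in an H524 NOTCH1 library without doxycycline. It was nevertheless higher with doxycycline in H82, at 0.0109 to 0.487 without and 0.771 to 1.49 with it, and with TAS1440 in COR-L88, at 0.314 to 0.810 with DMSO and 0.838 to 1.70 with TAS1440. ITGAM, a myeloid integrin, made up most of this, with means of 0.13 and 1.03 in H82 and 0.39 and 1.11 in COR-L88 (adjusted P = 0.0371 by limma in COR-L88), while the defining leukocyte markers PTPRC and CD3E averaged at most 0.019 in these 4 groups. Whether the SCLC markers or ITGAM have a part in the results below was not tested. In such bulk samples more cells that express a gene and more RNA per cell cannot be told apart.

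TLR3, the endosomal sensor of double-stranded RNA, was listed at 0 in all 3 H82 NOTCH1 libraries without doxycycline and stood at 3.79, 4.75 and 4.67 with it. No read was seen without doxycycline and 519 with it, which made TLR3 at least 143-fold higher against a floor of 3 reads over the group (adjusted P = 2.28e-08, limma with Benjamini-Hochberg adjustment over all genes tested in the line, as for every adjusted P below). In H69 it was again listed at 0 without doxycycline and at 4.57, 4.46 and 4.57 with it, at least 111-fold higher (adjusted P = 6.09e-11 by limma). In H524 the induced libraries stood lower, at 2.00, 1.98 and 2.29 on 79 reads in all, at least 23.1-fold above the uninduced libraries, all listed at 0 (adjusted P = 7.03e-09 by limma). The groups did not overlap in any of the 3 lines. TLR3 reached log2 1 only in induced or treated groups, so in each line it was tested only because it was high there. Without the filter its adjusted P was 1.99e-07 in H82, 2.49e-10 in H69, 9.55e-10 in H524 and 4.17e-05 with TAS1440 in COR-L88 (limma).

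COR-L88 cells showed the same direction with TAS1440 in place of a transgene. TLR3 was 0.24, 0 and 0 with DMSO and 2.23, 3.80 and 4.23 with TAS1440, on 1 and 236 reads, a ratio of 228 with a 95% counting interval of 40.5 to 9041 (adjusted P = 9.4e-06 by limma). With TAS1440 and GSI it was 0.92, 1.74 and 0.66, lower than with TAS1440 alone by 2.32 ± 0.40 (SE, n = 3 and 3, adjusted P = 0.000386 by limma). The 3 TAS1440 libraries were far apart, the lowest holding 17 reads and the highest 138, yet all lay above every library of the other groups.

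IFIH1, the sensor of long double-stranded RNA, was near the limit of detection in H82 without doxycycline. Its levels of 0, 0 and 1.33 stood for 1 read in all, and with doxycycline they were 7.45, 7.87 and 7.45, for 482 reads, a ratio of 399 with a 95% counting interval of 71.3 to 15787 (adjusted P = 4.75e-09 by limma). H69 started higher, at 2.22, 3.57 and 3.62, and reached 8.98, 8.95 and 8.97 with doxycycline (difference 5.83 ± 0.32 SE, n = 3 and 3, adjusted P = 3.35e-07 by limma). Parental H69 cells held IFIH1 at 5.37, 5.41 and 5.46, on 73 reads against 13 in the uninduced cells. The difference of 5.83 thus started from uninduced cells that lay below the parental ones. In H524 the uninduced libraries were scattered at 5.15, 1.32 and 2.54, and the induced ones stood above all of them at 6.68, 6.82 and 7.23 (difference 3.91 ± 0.76 SE, n = 3 and 3, adjusted P = 0.00133 by limma). COR-L88 already held IFIH1 at 7.71, 7.66 and 7.36 with DMSO, and TAS1440 brought it to 8.52, 8.55 and 9.16 (difference 1.17 ± 0.19 SE, n = 3 and 3, adjusted P = 0.000179 by limma). With GSI it was 7.90, 7.36 and 7.68, 1.10 below TAS1440 alone (adjusted P = 0.000475 by limma) and overlapping DMSO.

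**Figure D1:**
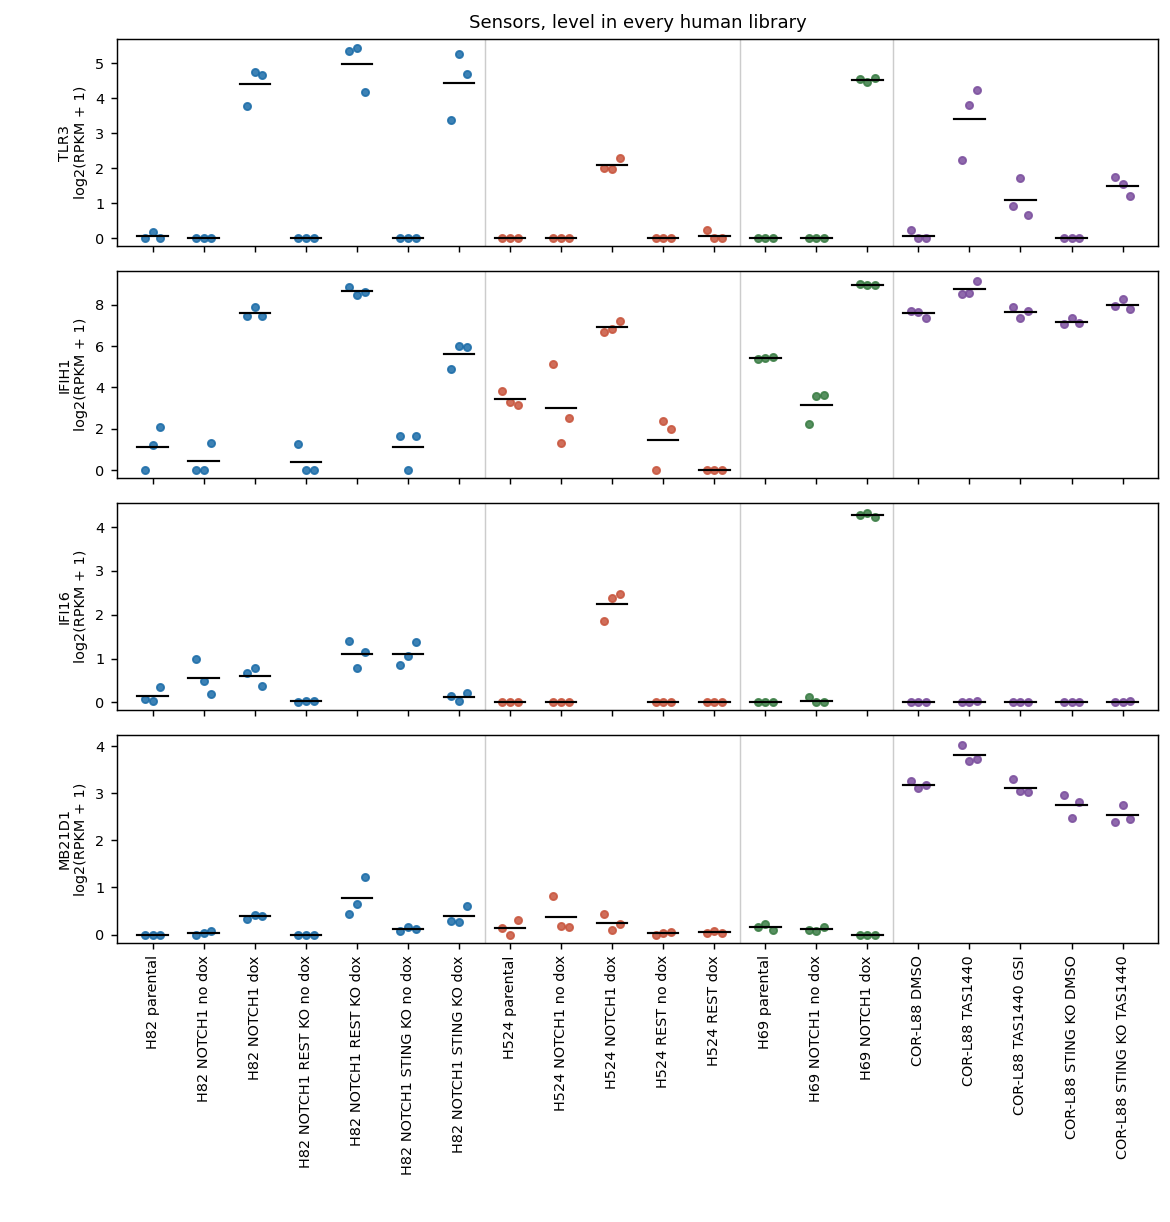
Level of TLR3, IFIH1, IFI16 and MB21D1 on the log2(RPKM + 1) scale (vertical axes) in each of the 60 human libraries, grouped along the horizontal axis; points are libraries and bars are means of 3. TLR3 leaves 0 only in groups with NOTCH1 induction or TAS1440 apart from 3 libraries at 0.18 to 0.24, and MB21D1 is high only in COR-L88.

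IFI16, a nuclear and cytosolic DNA-binding protein of the HIN-200 family, rose in H69 and H524. In H69 it went from 0.13, 0 and 0 to 4.26, 4.33 and 4.22 (difference 4.23 ± 0.06 SE, n = 3 and 3, adjusted P = 1.65e-10 by limma). In H524 it was listed at 0 in every library but the induced NOTCH1 ones, at 1.85, 2.39 and 2.47 on 913 reads, at least 267-fold above the uninduced ones (adjusted P = 3.06e-08 by limma). In both lines IFI16 reached log2 1 only in the induced libraries and was tested for that reason, and without the filter its adjusted P was 6.71e-10 in H69 and 2.83e-08 in H524 (limma). H82 with intact REST and STING gave overlapping groups, 0.99, 0.50 and 0.19 without and 0.67, 0.79 and 0.37 with doxycycline, on 104 and 128 reads (adjusted P = 0.859 by limma, 95% interval of the difference -0.37 to 0.46). In COR-L88 no library exceeded 0.04, with or without TAS1440.

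MB21D1, which encodes cGAS, was well expressed in COR-L88 alone. There it was 3.26, 3.11 and 3.18 with DMSO and 4.03, 3.68 and 3.74 with TAS1440 (difference 0.63 ± 0.15 SE, n = 3 and 3, adjusted P = 0.00224 by limma), and 3.31, 3.04 and 3.02 with GSI, 0.69 below TAS1440 alone (adjusted P = 0.00169 by limma). The other 3 lines stood at or below 1.22 in every library, too low to be tested there. In H82 it was 0, 0.03 and 0.08 without and 0.33, 0.42 and 0.40 with doxycycline, on 4 and 58 reads, while H69 went the other way, from 0.10, 0.08 and 0.17 to 0 in all 3 induced libraries, on 10 and 0 reads. The H524 groups overlapped, at 0.81, 0.19 and 0.15 without and 0.43, 0.09 and 0.23 with doxycycline.

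TMEM173, the gene of STING (chromosome 5, 138855118 to 138862520, minus strand, GRCh37), rose with NOTCH1 in H82 and H69. In H82 it was 0.04, 0 and 0 without and 1.07, 1.17 and 1.10 with doxycycline, on 3 and 394 reads, a ratio of 109 with a 95% counting interval of 36.9 to 529 (adjusted P = 6.6e-05 by limma). In H69 it was 0.18, 0.19 and 0.17 without and 2.75, 2.79 and 2.66 with doxycycline (difference 2.55 ± 0.07 SE, n = 3 and 3, adjusted P = 4.71e-09 by limma). Neither pair of groups overlapped. TMEM173 reached log2 1 only in the induced libraries of these 2 comparisons, and without the filter its adjusted P was 7.67e-05 in H82 and 1.11e-08 in H69 (limma). The uninduced H69 cells stood below the parental ones, at 0.36, 0.55 and 0.42, by 0.26 (adjusted P = 0.0244 by limma, 0.0296 to 0.0859 with 1 library left out). The uninduced H82 cells also stood below their parental cells, at 0.53, 0.25 and 0.21, without overlap but without a call (adjusted P = 0.269 by limma). Parental H82 cells held 87 reads, against 3 in uninduced and 394 in induced cells. The ratio of 109 therefore depends on which cells are the reference.

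H524 was different at the outset. Its parental libraries held TMEM173 at 2.49, 2.55 and 2.47, above every parental library of H82 and H69, and the 3 uninduced NOTCH1 libraries were scattered at 0.45, 3.25 and 1.43. With doxycycline they were 2.16, 2.67 and 2.60, inside that spread (difference 0.77 ± 0.48 SE, adjusted P = 0.244 by limma, 95% interval -0.26 to 1.80). Without the uninduced library at 3.25, TMEM173 differed by 1.54 (adjusted P = 0.000478 by limma), so the answer in H524 rests on 1 library. H524 cells with REST were 1.80, 1.41 and 1.55 without and 2.71, 2.36 and 2.61 with doxycycline, groups that did not overlap. The difference of 0.97 was not called (adjusted P = 0.315 by limma, 95% interval -0.05 to 2.00). That fit took its spread from all H524 groups, among them the scattered uninduced NOTCH1 group (SD 1.42, against 0.197 and 0.178 in the REST groups). By reads TMEM173 went from 572 to 1479 with REST, a ratio of 2.39 (95% counting interval 2.17 to 2.63).

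In COR-L88, TMEM173 was 0.24, 0.41 and 0.20 with DMSO, 2.54, 2.04 and 2.03 with TAS1440, and 0.86, 0.78 and 0.86 with TAS1440 and GSI. TAS1440 raised it by 1.92 (adjusted P = 1.23e-07 by limma), and the level with GSI lay 1.37 below TAS1440 alone (adjusted P = 7.46e-06) and 0.55 above DMSO (adjusted P = 0.0109, both by limma). When only the GSI and DMSO groups were fitted, TMEM173 did not reach the filter and was not tested. With TAS1440 against DMSO it reached log2 1 only in the TAS1440 group, and without the filter the adjusted P was 3.06e-07 (limma). The 3 groups were ordered without overlap.

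**Figure D2:**
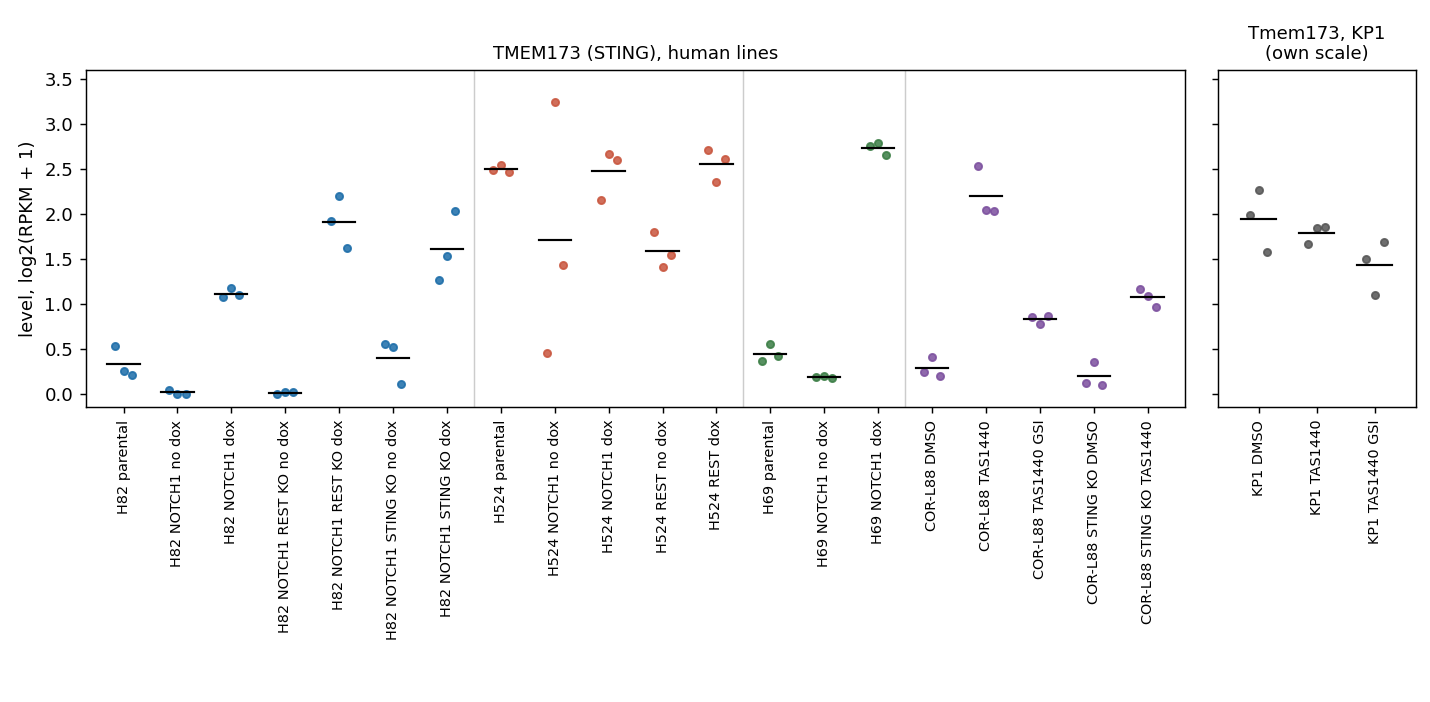
TMEM173 level (log2(RPKM + 1), vertical axis) in every library, with the 20 human groups on the left and the mouse Tmem173 in KP1 on the right, which was normalized separately; points are libraries and bars are means of 3. H82, H69 and COR-L88 start near 0 and rise, while H524 parental cells start at 2.47 to 2.55 and the uninduced H524 NOTCH1 libraries spread from 0.45 to 3.25.

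Ordered by group mean, TMEM173 ran from 2.73 in H69 with NOTCH1 and doxycycline through H524 REST with doxycycline (2.56), H524 parental (2.50), H524 NOTCH1 with doxycycline (2.48), COR-L88 with TAS1440 (2.20), H82 REST KO with doxycycline (1.91), H524 NOTCH1 without doxycycline (1.71), H82 STING KO with doxycycline (1.61) and H524 REST without doxycycline (1.58). Neighbours in this upper stretch all overlapped. Below it came H82 NOTCH1 with doxycycline (1.11) and COR-L88 STING KO with TAS1440 (1.07), which overlapped each other, then COR-L88 with GSI (0.83), then 6 groups between 0.18 and 0.45 that ran into one another, and last the H82 NOTCH1 and REST KO groups without doxycycline (both 0.01). Over the 20 human group means and 15887 genes, the levels most like those of TMEM173 by Pearson r were those of TBC1D8B (0.931), COL6A1 (0.908), NLRC5 (0.903), CCDC102A (0.903) and HS6ST2 (0.893). These means share cell lines and state, and the r values are a description. Among the other members r ran from -0.148 for TBK1 to 0.498 for TLR3.

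MAVS, the mitochondrial adaptor of MDA5, varied little, between 1.29 and 2.58 over all human libraries. In H524 it was 2.16, 1.79 and 2.11 without and 2.41, 2.58 and 2.49 with NOTCH1 induction (difference 0.48 ± 0.15 SE, n = 3 and 3, adjusted P = 0.029 by limma), a call that centring each library on its median ended (adjusted P = 0.0708) and that leaving out 1 library ended in 4 of 6 fits (adjusted P = 0.0233 to 0.114). In COR-L88 it was 1.74, 1.73 and 1.79 with DMSO and 1.77, 2.16 and 2.13 with TAS1440 (difference 0.26 ± 0.11 SE, adjusted P = 0.049 by limma), and centring left 0.13 (adjusted P = 0.293). H82 and H69 gave no call for MAVS (adjusted P = 0.117 and 0.568 by limma), though the H82 difference was called without the induced library at 1.71 (adjusted P = 0.0175).

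TBK1, the kinase that phosphorylates IRF3, was expressed in every human library, between 2.03 and 3.92, and rose with NOTCH1 in H69, from 3.10, 3.26 and 3.47 to 3.56, 3.61 and 3.66 (difference 0.33 ± 0.09 SE, n = 3 and 3, adjusted P = 0.00847 by limma), but not by a call in H82, H524 or COR-L88. IKBKE, its inducible relative, passed the filter in H69 only, where it went from 0.18, 0.32 and 0.35 to 1.45, 1.42 and 1.49 (difference 1.17 ± 0.07 SE, adjusted P = 5.63e-07 by limma). It reached log2 1 only in the induced libraries and was tested for that reason, and without the filter the adjusted P was 5.09e-07 (limma). By reads it went from 67 to 502 in H69, a ratio of 8.01 with a 95% counting interval of 6.19 to 10.5.

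Elsewhere IKBKE was too low to be tested, but its reads differed between groups. H82 went from 0.03, 0.01 and 0.03 to 0.75, 0.74 and 0.48 with doxycycline, on 7 and 289 reads, a ratio of 34.2 with a 95% counting interval of 16.4 to 85.7, and the groups did not overlap. The ratio was 24.2 (12.9 to 51.2) in H82 REST KO cells and 7.01 (4.22 to 12.4) in H82 STING KO cells. COR-L88 went from 0.41, 0.23 and 0.33 with DMSO to 0.98, 0.83 and 0.66 with TAS1440, on 95 and 282 reads, a ratio of 2.87 (2.26 to 3.66). H524 libraries stood at most at 0.06, with 2 reads without and 17 with doxycycline. IRF3, the factor that the kinases phosphorylate, lay between 1.99 and 3.61 in all human libraries and was called in no NOTCH1 or TAS1440 comparison there. Its largest shift with NOTCH1 was in H82, from 2.24, 2.45 and 2.51 to 2.13, 1.99 and 2.16 (difference -0.31, adjusted P = 0.0905 by limma, and 0.0461 without the uninduced library at 2.24).

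TREX1, which removes cytosolic DNA and so restrains cGAS, rose with NOTCH1 in H82 and H69. H69 went from 3.12, 3.15 and 3.33 to 4.31, 4.29 and 4.24 (difference 1.08 ± 0.07 SE, n = 3 and 3, adjusted P = 1.03e-06 by limma). In H82 it went from 2.43, 1.14 and 1.12 to 2.55, 2.91 and 2.87 (difference 1.21 ± 0.30 SE, n = 3 and 3, adjusted P = 0.00241 by limma), where the uninduced library at 2.43 stood apart from the other two. H524 gave 4.09, 3.22 and 3.62 without and 4.07, 4.15 and 4.04 with doxycycline, which overlapped (adjusted P = 0.222 by limma), and COR-L88 gave 4.38, 4.09 and 4.29 with DMSO and 3.51, 4.34 and 4.05 with TAS1440 (difference -0.29, adjusted P = 0.158 by limma). In COR-L88 the call turned to lower when libraries were centred on their median (-0.43, adjusted P = 0.037) or without the TAS1440 library at 4.34 (adjusted P = 0.0211).

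**Figure D3:**
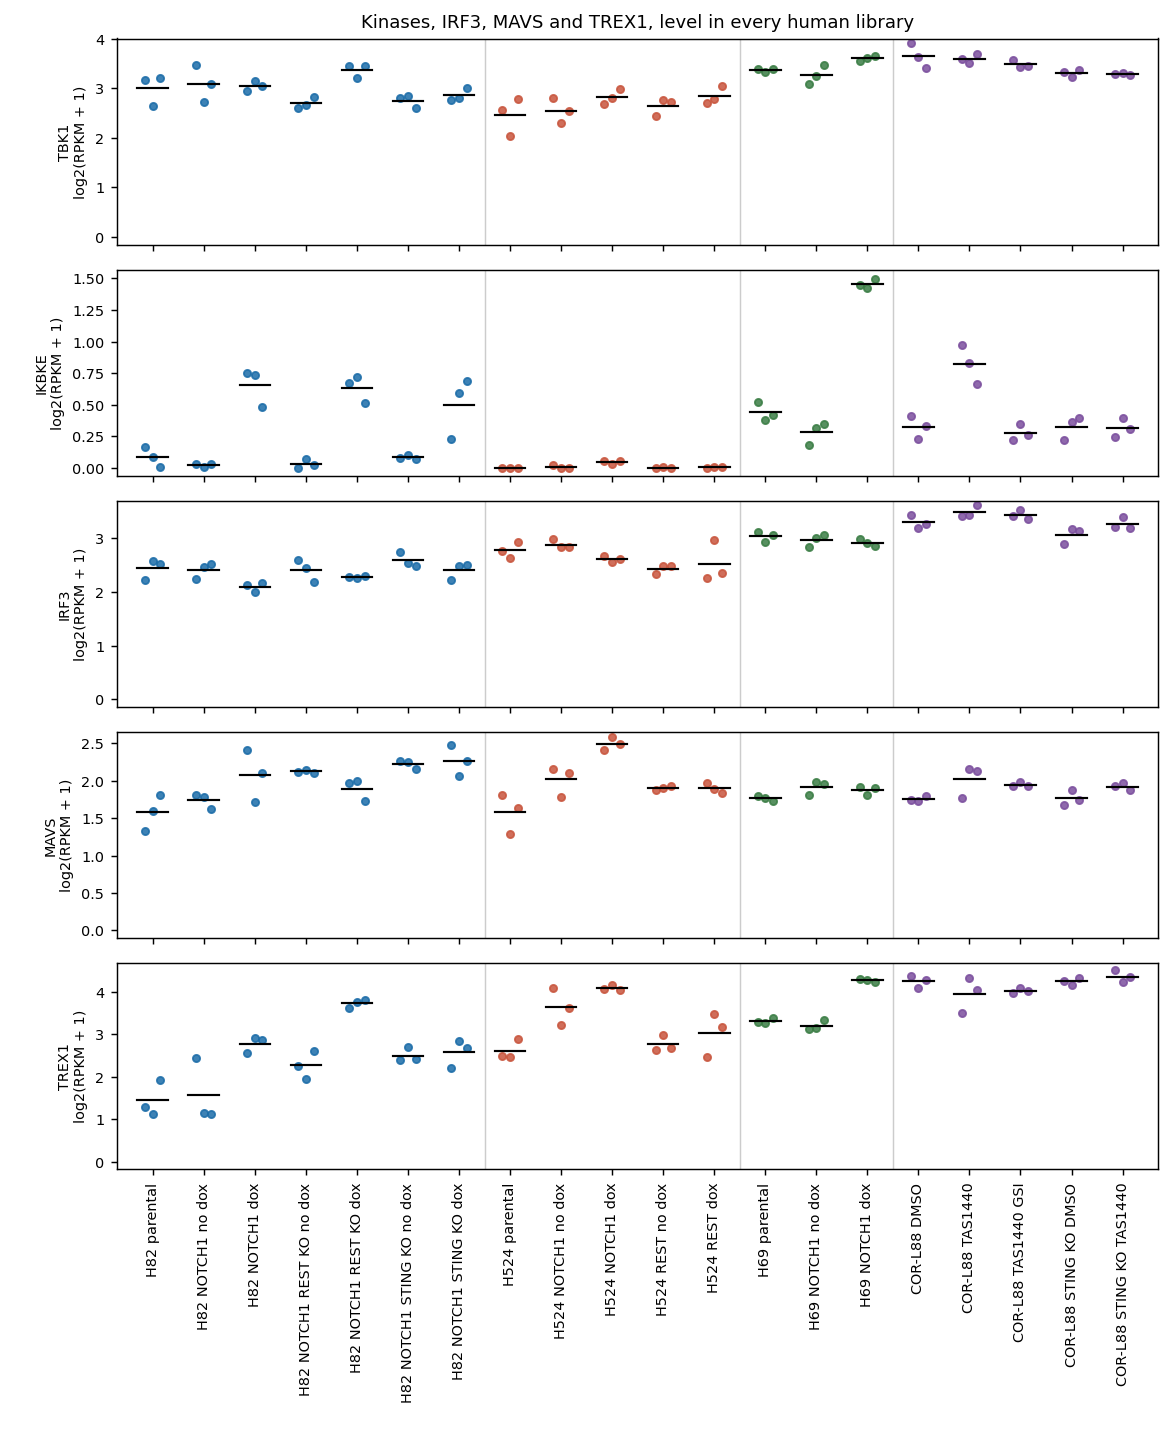
Level of TBK1, IKBKE, IRF3, MAVS and TREX1 on the log2(RPKM + 1) scale (vertical axes, each with its own range) in each of the 60 human libraries by group; points are libraries and bars are means of 3. TBK1, IRF3 and MAVS are at 1.29 or higher in every library, while IKBKE reaches 1.42 to 1.49 in induced H69.

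Counted together, NOTCH1 induction raised 4 of the 8 members tested in H82 and lowered 0, against 25.4% of all genes tested that rose and 24.9% that fell. In H524 it raised 4 of 8 and lowered 0 (17.9% and 14.4% of all genes), and in H69 it raised 7 of 9 and lowered 0 (44.1% and 38.3%). TAS1440 raised 5 of 8 in COR-L88 and lowered 0 (31.1% and 26.6%), and against TAS1440 with GSI it stood higher for 4 and lower for 0 (27.7% and 19.0%). TAS1440 with GSI against DMSO gave 1 higher member, TMEM173 (13.1% higher and 11.4% lower over all genes). Part of each count follows from the filter, since a gene was tested if it reached log2 1 in 3 libraries: of the members called, 2 in H82, 2 in H524, 4 in H69 and 2 in COR-L88 with TAS1440 reached that level only in the induced or treated group, and these counts are given as a description.

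The STING KO comparisons asked how the members stood once STING was targeted. TMEM173, the targeted gene itself, is kept in their counts. In H82 STING KO cells TMEM173 mRNA was not lower: it was 0.55, 0.52 and 0.11 without and 1.27, 1.53 and 2.04 with doxycycline (difference 1.22, adjusted P = 3.28e-05 by limma). Without doxycycline it had 61 reads against 3 in uninduced NOTCH1 cells with intact STING, a ratio of 30.3 (95% counting interval 9.90 to 151). Parental H82 cells, also with intact STING, held 87 reads, so this ratio depends on which intact cells are the reference. By reads TMEM173 rose by a ratio of 6.57 (5.02 to 8.73) in STING KO cells, from 61 to 454. The ratio of 109 with intact STING started from the 3 reads of the uninduced NOTCH1 cells. With doxycycline it was 0.50 above the cells with intact STING on the log2 scale (adjusted P = 0.0361 by limma, 0.0102 to 0.218 with 1 library left out). IFIH1 reached 4.89, 6.00 and 5.96 with doxycycline in STING KO cells, on 15 to 33 reads a library, against 141 to 192 reads in cells with intact STING. It was 1.97 lower (adjusted P = 0.00731 by limma), and its response to doxycycline was smaller by 2.63 ± 0.75 (SE, adjusted P = 0.0345 by limma). A pseudocount of 0.1 ended both calls for IFIH1 (adjusted P = 0.271 and 0.276), and leaving out 1 library ended the second in 7 of 12 fits (adjusted P = 0.0134 to 0.0964). Compared by reads, IFIH1 still rose in STING KO cells, from 2 to 80 reads (ratio 35.3, 95% counting interval 9.46 to 297).

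TLR3 behaved otherwise in H82 STING KO cells. It went from 0 in all libraries to 3.37, 5.26 and 4.70, at least 108-fold higher (adjusted P = 3.37e-08 by limma), and its response was not called different from that with intact STING, with a difference of 0.04 and a 95% interval of -1.06 to 1.13. IFI16 fell, from 0.85, 1.06 and 1.38 to 0.14, 0.03 and 0.21 (difference -0.97, adjusted P = 0.000721 by limma), and this response differed from that with intact STING by -1.02 ± 0.28 (SE, adjusted P = 0.0274 by limma, 0.00481 to 0.079 with 1 library left out). TREX1 was 2.38, 2.71 and 2.41 without and 2.20, 2.85 and 2.69 with doxycycline (adjusted P = 0.862 by limma). Doxycycline thus raised 3 of 8 members and lowered 1 in STING KO cells (20.8% and 16.9% of all genes). TMEM173 and TLR3 reached log2 1 only with doxycycline here and IFI16 only without it, so the count is a description. Without the filter the adjusted P was 4.13e-05 for TMEM173 and 2.81e-07 for TLR3 (limma).

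Before any doxycycline, H82 STING KO cells already stood apart from uninduced NOTCH1 cells with intact STING, and knockout and clone cannot be told apart here. IFI16 was higher by 0.54 (adjusted P = 0.0412), TREX1 by 0.93 (adjusted P = 0.0207) and MAVS by 0.48 (adjusted P = 0.038, all by limma), so that 3 of 8 members differed where 34.6% of all genes did. IFI16 reached log2 1 only in STING KO libraries here, and without the filter its adjusted P was 0.0455 (limma). Leaving out 1 library ended the call in 4 of 6 fits for IFI16, 3 of 6 for TREX1 and 5 of 6 for MAVS. The sum of the 5 SCLC markers was 21.9 to 26.1 in these cells against 30.5 to 30.9 with intact STING. With doxycycline, 2 of 8 members, the targeted TMEM173 and IFIH1, differed between STING KO and intact cells (39.2% of all genes). Of the responses, 2 of 8 did, those of IFI16 and IFIH1 (9.26%).

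In COR-L88 the STING KO cells answered TAS1440 less in 2 members. TMEM173 was 0.12, 0.36 and 0.10 with DMSO and 1.16, 1.09 and 0.96 with TAS1440, a rise of 0.88 (adjusted P = 0.00019 by limma) that was smaller than that of intact cells by 1.04 ± 0.20 (SE, adjusted P = 0.00914 by limma), and 0.1 as the pseudocount ended the call of the difference (adjusted P = 0.134). MB21D1 was 2.97, 2.48 and 2.82 with DMSO and 2.39, 2.76 and 2.45 with TAS1440, and its response was smaller by 0.85 ± 0.21 (SE, adjusted P = 0.025 by limma, 0.00946 to 0.0692 with 1 library left out). TLR3 was listed at 0 with DMSO and at 1.75, 1.55 and 1.21 with TAS1440, and its response was not called different (-1.84 ± 0.56 SE, adjusted P = 0.0605 by limma), though without the lowest TAS1440 library it was (-2.44, adjusted P = 0.00405).

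With TAS1440, 4 members stood lower in COR-L88 STING KO than in intact cells: TMEM173 by 1.13, MB21D1 by 1.28, IFIH1 by 0.76 and TLR3 by 1.92 (adjusted P = 0.000132, 7.22e-05, 0.0116 and 0.00377 by limma). The IFIH1 call was lost without the STING KO library at 7.77 (adjusted P = 0.052). Those are 4 of 8 members, the targeted TMEM173 among them, where 27.1% of all genes differed. With DMSO limma called 0 of 8 members, 2 of them at an unadjusted P under 0.05, against 5.41% of all genes. Of the responses to TAS1440, 2 of 8 differed, again with TMEM173 among them, against 7.93%. Within STING KO cells TAS1440 raised 3 of 8 members, TMEM173, IFIH1 and TLR3, and lowered 0 (22.4% and 20.9% of all genes). TMEM173 and TLR3 reached log2 1 only with TAS1440 there, so the count is a description. Without the filter their adjusted P was 0.000195 and 0.0154 (limma). The SCLC marker sum with TAS1440 was 16.9 to 18.3 in STING KO and 11.6 to 13.9 in intact cells, and the part of this in the lower members was not tested.

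REST is itself a Notch target that silences neuronal genes, and the REST KO comparisons asked whether the members also moved in H82 cells in which it was targeted. In REST KO cells TMEM173 went from 0, 0.01 and 0.02 to 1.93, 2.20 and 1.62, on 2 and 742 reads (ratio 414, 95% counting interval 114 to 3421, adjusted P = 7.58e-08 by limma). IFIH1 went from 1.27, 0 and 0 to 8.85, 8.48 and 8.62 (adjusted P = 4.35e-10 by limma) and TLR3 from 0 to 5.35, 5.43 and 4.18, at least 234-fold (adjusted P = 3.07e-09 by limma). IFI16 rose from 0, 0.04 and 0.04 to 1.40, 0.78 and 1.16, TREX1 from 2.25, 1.96 and 2.60 to 3.63, 3.76 and 3.81, and TBK1 from 2.61, 2.66 and 2.83 to 3.46, 3.21 and 3.44 (adjusted P = 0.000164, 0.000464 and 0.00536 by limma). MB21D1, not tested, was listed at 0 without and at 0.44, 0.65 and 1.22 with doxycycline, at least 41.2-fold higher by reads.

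Doxycycline thus raised 6 of 8 members in REST KO cells and lowered 0 (26.0% and 26.2% of all genes). Of these, 3 (TMEM173, IFI16 and TLR3) reached log2 1 only with doxycycline, so the count is a description. Without the filter their adjusted P was 1.56e-07, 0.000199 and 3.25e-08 (limma). With doxycycline, REST KO cells stood above intact ones in TMEM173 by 0.80 (adjusted P = 0.00207) and TREX1 by 0.95 (adjusted P = 0.0169, both by limma), 2 of 8 members where 38.4% of all genes differed. The TREX1 call was lost without the intact library at 2.55 (adjusted P = 0.062). The response itself was larger in REST KO cells for TMEM173 by 0.80 ± 0.26 (SE, adjusted P = 0.0375) and for IFI16 by 1.04 ± 0.28 (SE, adjusted P = 0.0151, both by limma), 2 of 8 against 16.6% of all genes. The TMEM173 difference was no longer called in 11 of the 12 fits that left out 1 library, nor with a pseudocount of 0.1 (adjusted P = 0.18). NOTCH1 itself was higher in REST KO cells with doxycycline, at 8.75 to 10.74 against 4.26 to 5.56, and the part of this in the larger response was not tested. Without doxycycline limma called 0 of 8 members between REST KO and intact cells, with 4 at an unadjusted P under 0.05 (15.2% of all genes were called), and 0 of 8 between uninduced and parental H82 cells, with 0 at that level (13.7%).

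**Figure D4:**
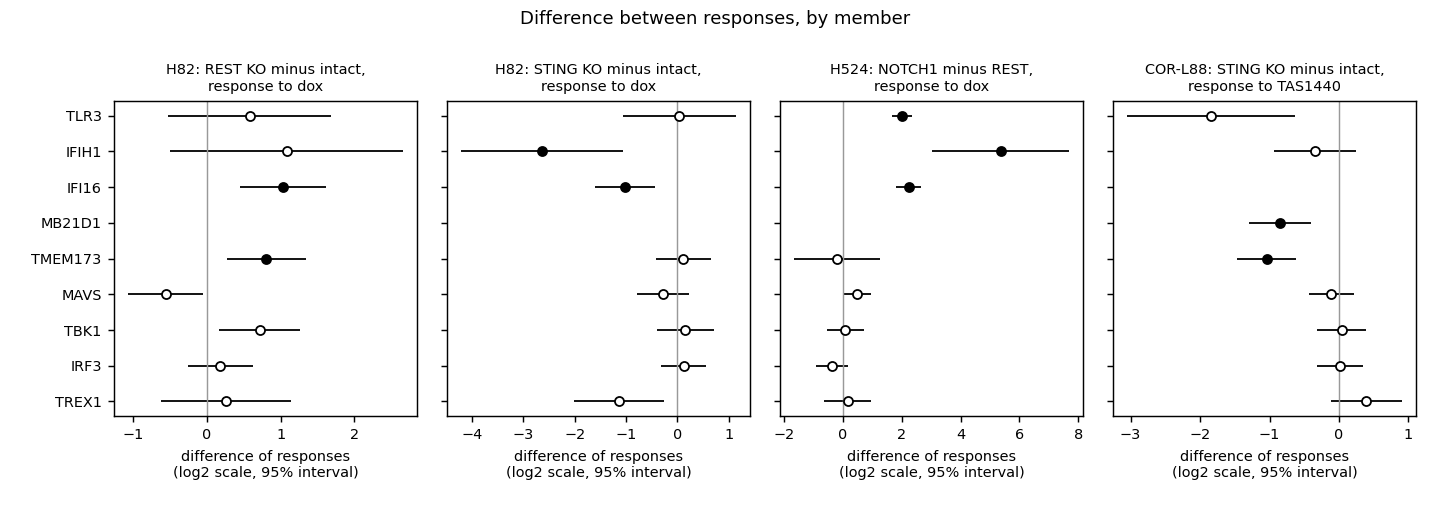
Difference between responses to doxycycline or TAS1440 (horizontal axes, log2 scale) for each tested member in 4 pairs of backgrounds; points are estimates, lines 95% intervals, and filled points are those with an adjusted P under 0.05. Filled points lie to the left of 0 for IFIH1 and IFI16 in H82 STING KO and for TMEM173 and MB21D1 in COR-L88 STING KO. They lie to the right for TMEM173 and IFI16 in H82 REST KO and for TLR3, IFIH1 and IFI16 in H524 NOTCH1 against REST.

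REST alone did not raise the sensors in H524. TLR3 was 0.22, 0 and 0 with REST and doxycycline, IFI16 was listed at 0 throughout, and IFIH1 was 0, 2.39 and 1.99 without and 0 in all 3 libraries with doxycycline (adjusted P = 0.347 by limma). REST itself went from 5.05, 5.03 and 4.90 to 6.87, 10.72 and 9.43. Limma, with the spread shared by all H524 groups, called 0 of 8 members, and 0 at an unadjusted P under 0.05. Over all genes 1.77% rose and 1.06% fell. Set side by side with doxycycline, NOTCH1 cells differed from REST cells in 5 of 8 members (42.8% of all genes): IFI16, TLR3 and IFIH1, and also TREX1 by 1.05 (adjusted P = 0.00529) and MAVS by 0.60 (adjusted P = 0.00645, both by limma). In this pair IFI16, TLR3 and IFIH1 reached log2 1 only in NOTCH1 cells, so the count is a description. Without the filter their adjusted P was 2.65e-08, 1.34e-09 and 3.44e-05 (limma). IFIH1 had 299 reads with NOTCH1 and none with REST, at least 93.7-fold, and IFI16 913 and none, at least 286-fold. Of the 8 responses, those of IFI16, IFIH1 and TLR3 differed between the vectors (19.1% of all genes). IFI16 and TLR3 reached log2 1 in no H524 group but the induced NOTCH1 one and were tested for that reason. Uninduced NOTCH1 cells differed from parental H524 cells in 2 of 8 members, TREX1 (1.04 higher, adjusted P = 0.0109) and MAVS (0.44 higher, adjusted P = 0.0481, up to 0.152 with 1 library left out, both by limma), against 26.6% of all genes. Neither was called when only the groups compared were fitted (adjusted P = 0.081 for TREX1 and 0.293 for MAVS by limma). Uninduced REST cells differed from parental ones in 0 of 8, with 1 at an unadjusted P under 0.05, against 0.300% (limma). In H69 the same comparison gave 2 of 9 members, both lower, TMEM173 and IFIH1 (2.28 lower, adjusted P = 0.00127 by limma), against 27.4%.

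The 3 NOTCH1 lines were fitted together to ask whether the response to doxycycline differed between them. All responses in this fit are differences on the log2(RPKM + 1) scale, which do not rank fold changes of genes that start near 0. H524 and H82 differed in 4 members (26.5% of all genes): the difference was larger in H524 for IFI16 and smaller for IKBKE, IFIH1 and TLR3. H69 and H82 differed in 2 (58.3% of all genes), IKBKE and IFI16, and H69 and H524 in 4 (51.9% of all genes), TMEM173, IKBKE, IFI16 and TLR3. For IKBKE the order turned with the scale: the difference was 0.54 larger in H69 than in H82, while the ratio of reads was 34.2 (95% counting interval 16.4 to 85.7) in H82 and 8.01 (6.19 to 10.5) in H69. With a pseudocount of 0.1 the IKBKE responses of H69 and H82 differed by 0.04 and were not called different (adjusted P = 0.924 by limma), and IKBKE passed the filter of this fit only through the induced H69 libraries. The H524 ratio rested on 17 and 2 reads, 7.46 (1.77 to 66.6). TLR3 without doxycycline had no read in any of the 3 lines, and IFI16 none in H524, so their folds are floors that give no order between those lines. For TMEM173 the ratio of reads was 42.0 (28.9 to 63.5) in H69 and 1.37 (1.27 to 1.49) in H524, the latter pooled over libraries that were far apart. The IFI16 differences were 0.05 in H82, 2.24 in H524 and 4.23 in H69. NOTCH1 with doxycycline reached 4.26 to 5.56 in H82, 7.58 to 8.31 in H524 and 7.93 to 8.07 in H69, and its part was not tested.

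Other genes of the pathway moved in both directions. Of 22 further genes of DNA sensing and STING regulation, 18 were tested in H82, where NOTCH1 raised 6 and lowered 6 (median difference -0.14, against -0.00 over all genes), and 18 in H69, where it raised 10 and lowered 5 (median 0.40, against 0.08). Over all genes 25.4% rose and 24.9% fell in H82, and 44.1% and 38.3% in H69. TRIM56, a ubiquitin ligase that acts on STING, rose by 1.80 in H82, 2.06 in H524 and 1.89 in H69 (adjusted P = 8.01e-06, 8.09e-06 and 1.11e-06 by limma). NLRX1, a mitochondrial protein that restrains STING, rose by 1.65 in H524 and 1.48 in H69 (adjusted P = 0.00543 and 6.14e-07). RNASEH2A, the catalytic subunit of an enzyme that removes RNA from DNA, fell by 1.68, 1.38 and 0.74 in H82, H524 and H69 (adjusted P = 0.000877, 0.000275 and 3.17e-05, all by limma). SAMHD1, which degrades deoxynucleotides, fell by 1.38 in H82 and by 0.90 in H524 but rose by 1.34 with TAS1440 in COR-L88 (adjusted P = 3.93e-05, 0.0118 and 1.18e-05 by limma). In COR-L88, 18 of the 22 were tested, 8 rose and 5 fell, and in H524, 19 were tested, 5 rose and 2 fell, where over all genes 31.1% rose and 26.6% fell in COR-L88 and 17.9% and 14.4% in H524.

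Of 17 further genes of the MDA5 and RIG-I pathway, 5 of 17 tested rose and 4 fell in H82, 6 of 16 rose and 2 fell in H524, 9 of 16 rose and 3 fell in H69, and 9 of 15 rose and 1 fell in COR-L88 with TAS1440. The shares of all genes that rose and fell were 25.4% and 24.9% in H82, 17.9% and 14.4% in H524, 44.1% and 38.3% in H69, and 31.1% and 26.6% in COR-L88. ADAR, the RNA-editing enzyme that hides self RNA from MDA5, rose by 0.90, 1.06 and 1.72 in H82, H524 and H69 (adjusted P = 0.000345, 0.000101 and 1.31e-08 by limma). DHX58, the third RIG-I-like receptor, rose by 1.42 in H524 and 1.68 in COR-L88 (adjusted P = 0.000413 and 0.000287), and RNF135, a ubiquitin ligase for RIG-I, by 2.58 in H69 and 2.13 in COR-L88 (adjusted P = 4.64e-08 and 4.86e-06, all by limma). Medians over this list were 0.03, 0.12, 0.55 and 0.51 in the order of the lines above.

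Of 9 genes of endosomal Toll-like receptors and their adaptors, 1 of 5 rose in H82, 0 of 7 rose and 1 fell in H524, 5 of 7 rose and 1 fell in H69, and 5 of 6 rose in COR-L88. Over all genes the shares that rose were 25.4%, 17.9%, 44.1% and 31.1% in that order. TICAM1, the adaptor of TLR3, rose by 1.21 in H69 and 1.86 in COR-L88 (adjusted P = 1.48e-06 and 1.37e-06 by limma). MYD88, the adaptor of the other endosomal receptors, rose by 1.72 in COR-L88 and fell by 0.94 in H524 (adjusted P = 1.27e-07 and 0.0434 by limma). IRAK4 fell by 0.64 in H69 (adjusted P = 3.33e-05 by limma).

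Of 10 genes that the pathway is known to turn on, those tested all rose with NOTCH1 or TAS1440: 4 of 4 in H82, 3 of 3 in H524, 5 of 5 in H69 and 2 of 2 in COR-L88. These counts follow largely from the filter: all 4, 3 and 5 genes called with NOTCH1 and 1 of the 2 called in COR-L88 reached log2 1 only in the induced or treated group, so they were tested only because they were high there. Over all genes 25.4%, 17.9%, 44.1% and 31.1% rose in the 4 lines. ISG15 rose by 4.03 in H82, 2.47 in H524, 5.81 in H69 and 1.65 in COR-L88 (adjusted P = 1.12e-08, 5.25e-07, 2.79e-10 and 5.17e-05 by limma), and by 1.02 with REST in H524 (adjusted P = 0.0171). IFIT2 was listed at 0 in uninduced H524 cells and averaged 3.04 with doxycycline. IFNB1, the gene of interferon beta, was too low to be tested in any line. With REST in H524, 1 of 19, 0 of 16, 1 of 7 and 1 of 3 genes of the 4 lists rose and none fell.

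In mouse KP1 cells, 8 of the 10 counterparts were listed (Mb21d1 and Ifi16 were not matched) and 5 passed the filter. Tlr3 was 0.06, 0.06 and 0.03 with DMSO, 1.25, 0.89 and 1.62 with TAS1440, and 0.06, 0.06 and 0.11 with GSI, and Ifih1 was 0.09, 0.08 and 0.10, then 0.32, 0.97 and 0.31, then 0.19, 0.17 and 0.25. Both were too low to be tested, and their TAS1440 libraries stood above all others. Tmem173 did not follow the human lines, at 1.99, 2.27 and 1.58 with DMSO, 1.67, 1.85 and 1.86 with TAS1440 and 1.50, 1.10 and 1.69 with GSI, 3 overlapping groups.

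Mavs was the 1 member called against DMSO, from 1.23, 1.12 and 1.06 to 1.97, 1.60 and 1.85 (difference 0.67, adjusted P = 0.00298 by limma), where 18.2% of all genes rose and 18.5% fell. Against GSI, Mavs stood 0.56 higher with TAS1440 (adjusted P = 0.00888) and Irf3 0.45 higher (adjusted P = 0.0375, both by limma), 2 of 5 members where 15.7% of genes were higher and 16.3% lower. The Irf3 call was lost whichever of the 6 libraries was left out (adjusted P = 0.0512 to 0.106). Between TAS1440 with GSI and DMSO limma called 0 of 5 members, 2 of them at an unadjusted P under 0.05, and 0.642% of genes rose and 1.33% fell. Tbk1 lay between 0.80 and 1.35 in all 9 libraries.

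Relatives of IFI16 in the mouse HIN-200 family were listed at 0 in every KP1 library with DMSO or GSI. With TAS1440, Ifi204 was 1.96, 1.09 and 1.46, Ifi203 was 0.73, 0.58 and 0.57, Ifi205 was 0.35, 0.33 and 0.44, and Aim2 was 0.02, 0.12 and 0.04. Of the wider lists in KP1, Ddx58, the gene of RIG-I, rose by 3.30, Myd88 by 2.20 and Isg15 by 3.48 with TAS1440 (adjusted P = 0.000136, 7.63e-05 and 0.000312 by limma). The SCLC marker sum was 24.7 to 26.6 with DMSO, 0.256 to 13.4 with TAS1440 and 24.9 to 25.6 with GSI, and its part was not tested.

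**Figure D5:**
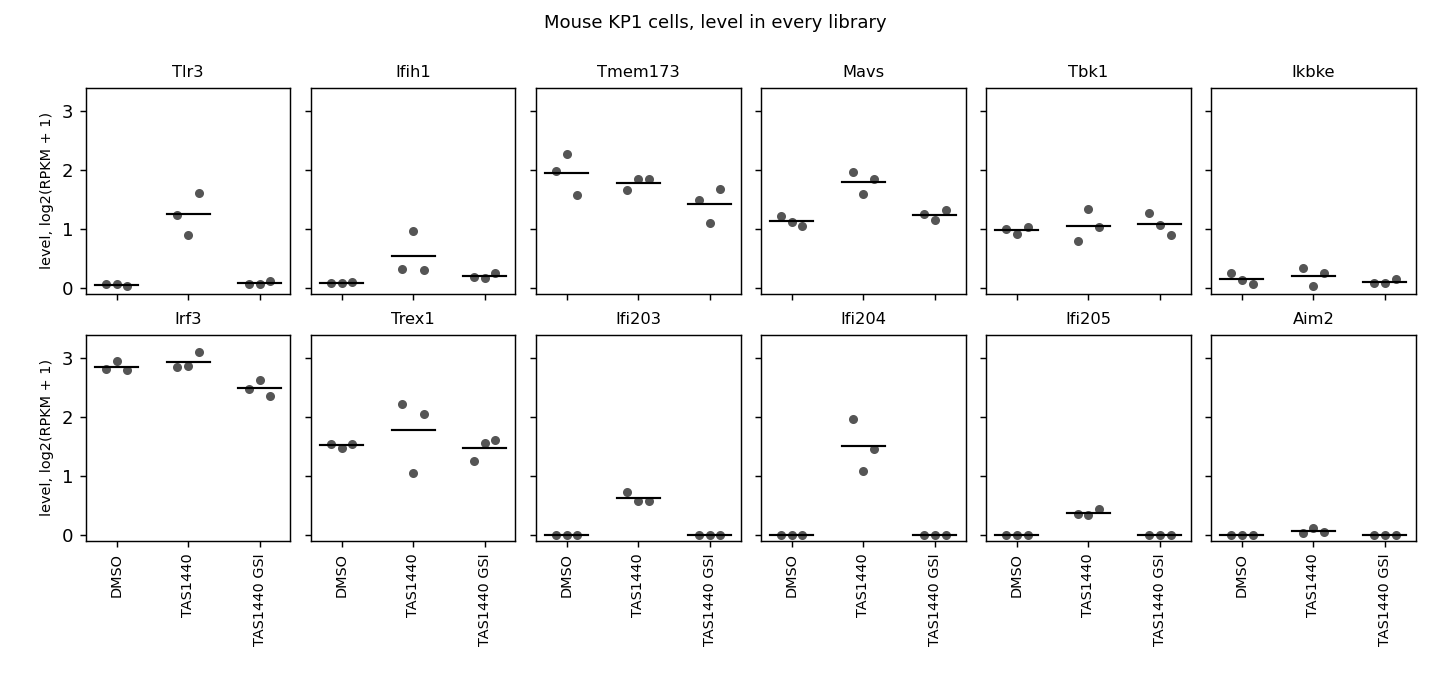
Level on the log2(RPKM + 1) scale (vertical axes, 1 range for all panels) of 8 member counterparts and 4 HIN-200 genes in the 9 KP1 libraries with DMSO, TAS1440, or TAS1440 and GSI; points are libraries and bars are means of 3. Tlr3 and the HIN-200 genes leave 0 with TAS1440 and are back near 0 with GSI, whereas Tmem173 overlaps between all groups.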

How the data were processed

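Bulk RNA-Seq libraries were analysed from the tables the authors deposited. Per the labels and the study's methods, the authors trimmed reads with Cutadapt, aligned them with STAR to hg19 or mm10, estimated expression with RSEM, scaled it with edgeR (TMM) and deposited log2 values of RPKM plus a pseudocount of 1; tool versions are not given in the sources used here. Human and KP1 tables were normalized separately and never compared by level. Depth in reads is unknown. Because RSEM and TMM values are scaled, whole steps were checked for single genes only on values up to 30 reads. Higher read numbers were scaled from the worth of 1 read and rounded, so they are approximate. Ratios of reads were summed over the 3 libraries of a group and given with exact conditional binomial (Clopper-Pearson) intervals, which leave out the spread between libraries.

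Groups came from the sample labels, with 3 libraries each, and no 2 libraries of a group held identical values. No column of per-sample values was left unmapped (0 columns). Differences were tested with limma 3.58.1 in R 4.3.3 (trend on mean level), with 1 mean per group in each line, on genes at log2 1 or more in at least 3 libraries, which were 13903 genes in H82, 13648 in H524, 13580 in H69, 13134 in COR-L88, 8260 in KP1 and 14756 in the joint fit of 18 libraries of the 3 NOTCH1 lines. P values were adjusted by Benjamini-Hochberg, and an adjusted P under 0.05 was a call. In all, 24 comparisons and 7 differences between responses were made. The test was also run on simulated data. There each gene had normal noise of the same spread in all groups, so that check did not cover groups of unequal spread. Alternatives were no filter, a pseudocount of 0.1, centring on library medians, fitting only the groups compared, no trend, and leaving out each library in turn.

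The genes named are all members, and from each wider list up to 3 called genes in each direction. The members and lists were chosen with earlier results of these data known. The list counts and medians are descriptions, and comparisons that share a group are not independent. Transcript lengths and GRCh37 positions came from a lifted GENCODE annotation.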

Additional observations from a re-analysis of the deposited data

Results flagged for a closer look

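A difference between 2 responses passed the test of that difference (an interaction term in limma, Benjamini-Hochberg adjusted over all genes) for 19 member values. In every case the values are differences between responses on the log2(RPKM + 1) scale, which does not rank fold changes of genes that start near 0, and several rest on groups listed at 0 or near it, where no fold is given.

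Within lines there were 9. In H82 the response to doxycycline was larger in REST KO than in intact cells for TMEM173 by 0.80 (SE 0.26, adjusted P = 0.0375) and for IFI16 by 1.04 (SE 0.28, adjusted P = 0.0151), both by limma. For IFI16 the uninduced REST KO cells also stood lower, on 4 reads against 104 in intact cells. The TMEM173 call was lost in 11 of 12 fits that left out 1 library (adjusted P = 0.0187 to 0.108) and with a pseudocount of 0.1 (0.18). In STING KO cells the IFI16 response differed by -1.02 (SE 0.28, adjusted P = 0.0274) and the IFIH1 response by -2.63 (SE 0.75, adjusted P = 0.0345), by limma. Leaving out 1 library ended each call in 7 of 12 fits (adjusted P = 0.00481 to 0.079 for IFI16 and 0.0134 to 0.0964 for IFIH1), and IFIH1 was also lost without the filter (0.0535) and with a pseudocount of 0.1 (0.276). In H524 the NOTCH1 response exceeded the REST response for IFI16 by 2.24 (SE 0.20, adjusted P = 2.48e-06), for IFIH1 by 5.37 (SE 1.08, adjusted P = 0.00292) and for TLR3 by 2.02 (SE 0.16, adjusted P = 9.01e-07), by limma. In COR-L88 the STING KO response to TAS1440 differed from the intact one for TMEM173 by -1.04 (SE 0.20, adjusted P = 0.00914) and for MB21D1 by -0.85 (SE 0.21, adjusted P = 0.025), by limma. The TMEM173 call was lost with a pseudocount of 0.1 (adjusted P = 0.134) and the MB21D1 call in 5 of 12 fits that left out 1 library (0.00946 to 0.0692).

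Between lines there were 10. Set against H82, the response to NOTCH1 in H524 differed for IKBKE by -0.59 (SE 0.12, adjusted P = 0.00154), IFI16 by 2.19 (SE 0.27, adjusted P = 1.62e-05), IFIH1 by -3.24 (SE 0.96, adjusted P = 0.0211) and TLR3 by -2.31 (SE 0.27, adjusted P = 1.01e-05), by limma. Set against H82, H69 differed for IKBKE by 0.54 (SE 0.12, adjusted P = 0.00108) and IFI16 by 4.18 (SE 0.27, adjusted P = 3.6e-09), by limma. Set against H524, H69 differed for TMEM173 by 1.78 (SE 0.62, adjusted P = 0.0252), IKBKE by 1.13 (SE 0.12, adjusted P = 1.32e-06), IFI16 by 1.99 (SE 0.27, adjusted P = 1.69e-05) and TLR3 by 2.44 (SE 0.27, adjusted P = 2.2e-06), by limma. The IFIH1 difference between H524 and H82 was lost without H82 library 5 (adjusted P = 0.0526) and the TMEM173 difference between H69 and H524 without H524 library 25 (adjusted P = 0.0596) or when only the groups compared were fitted (0.0586). With a pseudocount of 0.1 the IKBKE difference between H69 and H82 was 0.04 (adjusted P = 0.924 by limma), and by reads the ratio was larger in H82 (34.2, 95% counting interval 16.4 to 85.7) than in H69 (8.01, 6.19 to 10.5).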

How the results depend on the processing

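No member changed direction under a setting while called. Leaving out the trend changed no count of members called. Without the filter the count went from 2 to 1 for the STING KO response in H82 and for uninduced against parental H524 NOTCH1 cells, and from 1 to 2 for TAS1440 against DMSO in KP1. With a pseudocount of 0.1 it went from 2 to 1 for STING KO against intact H82 with doxycycline and for the REST KO, STING KO and COR-L88 responses, from 0 to 1 for REST KO against intact H82 without doxycycline and for uninduced against parental H82, and from 1 to 2 for TAS1440 with GSI against DMSO in COR-L88. With centring it went from 2 to 1 for TAS1440 against GSI in KP1. Centring moved the median of all genes by 0.11 in H524, 0.14 and 0.13 in COR-L88 for TAS1440 against DMSO and GSI, and -0.13 for STING KO with TAS1440. When the fit held only the groups compared, the count went from 2 to 1 for STING KO against intact H82 with doxycycline, the REST KO and STING KO responses, H69 uninduced against parental and TAS1440 against GSI in KP1, from 3 to 1 for STING KO against intact H82 without doxycycline, from 0 to 1 for REST in H524, from 2 to 0 for uninduced against parental H524 NOTCH1 and from 1 to 0 for TAS1440 with GSI against DMSO. The cause was not tested.

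With each library left out in turn, the members called ran from 1 to 3 for REST KO against intact H82 with doxycycline, 1 to 2 for STING KO with it, 0 to 1 for REST KO and 0 to 3 for STING KO without it, 1 to 4 for NOTCH1 in H524, 3 to 5 for NOTCH1 against REST, 1 to 3 for uninduced against parental H524 NOTCH1, 3 to 7 for NOTCH1 in H69, 1 to 3 for uninduced against parental H69, 0 to 1 for STING KO with DMSO in COR-L88, and 1 to 2 for TAS1440 against DMSO and against GSI in KP1. For differences between responses they ran from 1 to 2 (REST KO), 0 to 2 (STING KO in H82), 1 to 3 (H524 NOTCH1 and REST), 1 to 3 (COR-L88) and 1 to 3 (H69 and H82). In H524 and H69 part of the drop follows from the filter, which TLR3 and IFI16, and in H69 also TMEM173 and IKBKE, miss without an induced library. Over 244 member comparisons, 80 of them called, leaving out a library ended 17 calls and made 25 new ones in at least 1 fit that still tested the member. Calls lost because a member missed the filter are not among the 17. The calls given with such a range or with a library left out are among those that changed. TREX1 and its mouse counterpart moved with single libraries: without H82 library 4 its response differed in STING KO cells by -1.57 (adjusted P = 0.0045 by limma) and in H524 by -1.21 (adjusted P = 0.00276), and without KP1 library 5 Trex1 rose with TAS1440 (adjusted P = 0.0118). No paired analysis was possible because the library numbers run on through the groups, so that compared groups share none. Unknown depth limits what low members such as MB21D1, IKBKE and IFNB1 can show.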
